A study of Mus musculus with 24 samples.

Results

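Elastic fibre genes were examined in mouse adipocyte precursors before and after differentiation: Eln, Fbn1, Fbn2, Mfap5, Fbln1, Fbln2, Fbln5, Efemp1, Efemp2 and Lox, chosen by name as 10 of the 24825 gene rows in the expression tables. All 10 passed the filter on low values (1 FPKM or more in at least 3 libraries), as did 12640 genes in all. Fbn2 reached 1 FPKM in 4 libraries, the 3 of ctrl at day 0 and 1 of Cre at day 0, so it was tested only through ctrl at day 0, where it is high. Its differences from that group are therefore given as values and kept out of the counts of members, save where a count is said to include Fbn2. The cells came from the stromal vascular fraction (SVF) of inguinal fat of Nfia flox/flox mice, in which exon 2 of Nfia is flanked by loxP sites, and all were immortalised with SV40 large T antigen. NFIA belongs to the nuclear factor I family of transcription factors. Of the 4 cell types, ctrl received an empty retroviral vector and Cre a retrovirus for Cre recombinase. Cre + NFIA additionally received the full-length protein with a 3xFLAG tag, and Cre + NFIA Δpro#3 a tagged mutant that lacks pro#3, the last proline-rich segment of the C-terminus. Each was sequenced at day 0 and at day 7 of differentiation, with isobutylmethylxanthine, indomethacin, dexamethasone, insulin, T3 and rosiglitazone first and then insulin, T3 and rosiglitazone. This gave 8 groups of 3 libraries, 24 in all. NFIA and its mutant were driven from retroviral vectors, so their levels are not those of the endogenous gene. Nothing in the sources used here says whether replicates were separate cultures, so p-values measure only the spread between these libraries, which may be technical.

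Elastic fibres give skin, lung, vessels and adipose tissue their recoil. Fibrillins assemble into microfibrils, tropoelastin is deposited on them with the help of fibulins, and lysyl oxidase then cross-links the elastin. Microfibrils also hold latent TGF-beta in the matrix. Fibroblasts and adipocyte precursors make these proteins, and matrix production is known to change as precursors turn into fat cells.

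Values are FPKM, which are per kilobase of gene and per 1000000 counted reads, so that levels of different genes can be set side by side. limma was fitted over all 12640 genes on log2(FPKM + 1), and a call required 1.5-fold or more on that scale together with a p below 0.05 after Benjamini-Hochberg adjustment. Changes below are differences of log2(FPKM + 1), with the standard error (SE). They understate the change of genes near or below 1 FPKM, here Eln and Fbn2. Libraries held 7.73 to 14.62 M counted reads (M, 1000000), and Cre at day 0 was the shallowest group (7.73 to 10.16 M). Nfia did not fall in the libraries labelled Cre: it stood at 6.47 ± 0.26 FPKM (SD, n = 3) in ctrl and 6.21 ± 0.77 FPKM in Cre at day 0 (change -0.06, limma adjusted p = 0.687), and the change at day 7 was 0.07 (limma adjusted p = 0.426). A count over the whole gene does not show the loss of 1 exon, so the label was not checked by it and each direction for Cre below rests on the label. The study itself reports efficient recombination by PCR of genomic DNA in Cre-expressing cells. It also reports a nearly complete loss of NFIA in them by RT-qPCR and western blot. In Cre + NFIA and Cre + NFIA Δpro#3, Nfia was 72.4 ± 2.6 and 60.7 ± 1.0 FPKM before differentiation, and 90.0 ± 6.7 and 102 ± 8 FPKM after it (SD, n = 3), a value that includes the introduced gene. The 3 most abundant precursor and fibroblast markers were present in every library, Ly6a at 370 to 1968 FPKM, Col1a1 at 256 to 1339 FPKM and Col3a1 at 217 to 801 FPKM.

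The genes lie on several chromosomes. In the mm9 build used for the expression values, Eln spans 135179651 to 135223111 on chromosome 5 (minus strand), Fbn1 125126330 to 125333729 on chromosome 2 (minus strand), and Fbln5 102984775 to 103057265 on chromosome 12 (minus strand). Fbln2 (91162449 to 91222534) and Mfap5 (122455863 to 122479308) are both on the plus strand of chromosome 6. Also on plus strands are Fbln1 (85036379 to 85116965 on chromosome 15), Efemp1 (28753204 to 28826743 on chromosome 11) and Efemp2 (5473973 to 5481853 on chromosome 19).

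RefSeq promoter windows (build GRCm38.p6) were matched to 6 of the 10 genes. The windows reach from 250 bases before a start to 50 after it. Eln, Fbn2, Lox and Mfap5 were not matched. The 250 bases before the start of Fbn1 (chr2:125506439-125506688, minus strand), Fbln2 (chr6:91212514-91212763, plus strand) and Efemp1 (chr11:28852955-28853204, plus strand) are shown because Fbn1 and Fbln2 moved together across libraries and Efemp1 moved apart from them. Capitals mark TTGGC, 1 arm of the palindrome bound by NFI proteins, and GGGCGG, the GC box, each on either strand.
Fbn1: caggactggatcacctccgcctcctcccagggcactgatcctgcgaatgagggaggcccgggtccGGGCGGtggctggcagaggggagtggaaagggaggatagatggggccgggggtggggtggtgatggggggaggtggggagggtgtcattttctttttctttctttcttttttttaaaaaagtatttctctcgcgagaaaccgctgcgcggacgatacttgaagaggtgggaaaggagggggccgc
Fbln2: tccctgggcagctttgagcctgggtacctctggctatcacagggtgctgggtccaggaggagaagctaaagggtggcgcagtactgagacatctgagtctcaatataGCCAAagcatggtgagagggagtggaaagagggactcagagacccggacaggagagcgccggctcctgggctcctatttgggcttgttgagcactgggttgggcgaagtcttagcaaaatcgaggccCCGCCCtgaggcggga
Efemp1: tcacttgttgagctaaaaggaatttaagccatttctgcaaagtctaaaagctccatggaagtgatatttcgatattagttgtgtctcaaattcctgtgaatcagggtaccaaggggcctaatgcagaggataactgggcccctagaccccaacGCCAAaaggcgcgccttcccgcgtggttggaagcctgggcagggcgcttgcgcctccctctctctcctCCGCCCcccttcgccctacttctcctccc
TTGGC occurred in these 250 bases once in Fbln2 and once in Efemp1, and its letters are not in the printed Fbn1 stretch. The GC box occurred once in each of the 3. Over all 32851 windows of 300 bases, 46.7% held TTGGC and 35.7% held GGGCGG on either strand. The full palindrome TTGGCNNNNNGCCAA, which contains TTGGC as each of its arms, was in 0.0365% of windows and in none of the 10 windows of the 6 genes. TGANTCA, the AP-1 motif, was in the Efemp1 window and in 7.81% of all windows. These are matches of letters in a window and say nothing of binding.

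Across the whole experiment the 10 genes did not behave as one set. Efemp2, Fbln2, Lox, Fbn1, Fbln1 and Efemp1 were abundant, with group means of 34.7 to 635 FPKM. Fbln5 and Mfap5 stood between 2.26 and 18.9 FPKM, while Eln (0.527 to 4.89 FPKM) and Fbn2 (0.219 to 3.16 FPKM) were scarce in all groups. Eln was read at 17 to 131 reads per library in ctrl, Cre and Cre + NFIA Δpro#3 at day 0, so its level there is imprecise. When the 8 groups of each gene were put in order of level, 37 of the 70 neighbouring pairs had overlapping libraries. The same count was not made over all genes, so it only describes how finely the groups can be ordered.

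**Figure D1:**
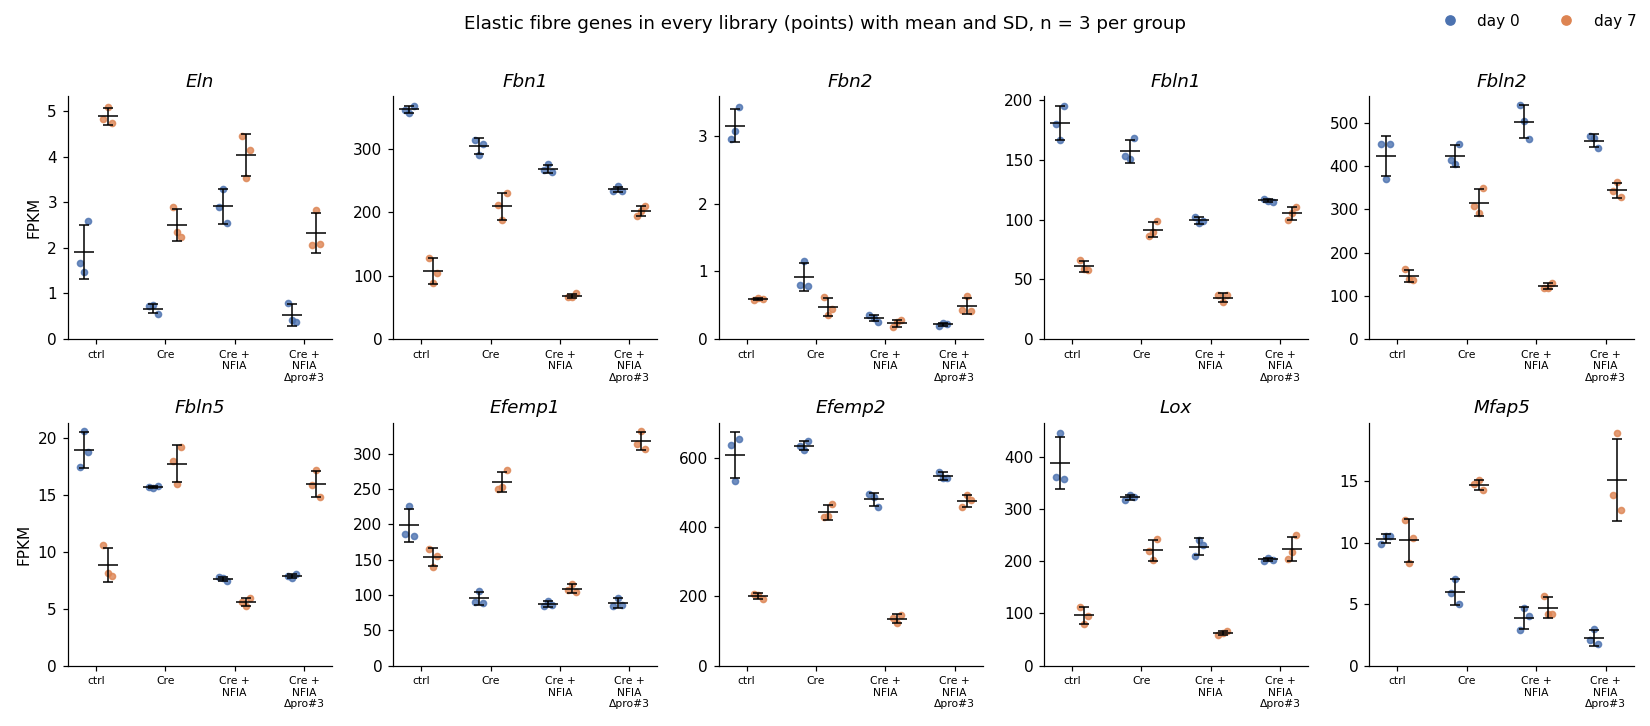
FPKM of the 10 genes (one panel each, linear axis from 0) in 4 cell types; points are libraries, blue for day 0 and orange for day 7, bars are the mean and SD of 3 libraries. Lox, Fbn1, Fbln2 and Efemp2 are lowest in ctrl and Cre + NFIA at day 7, while Eln is highest there.

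Before differentiation, the libraries labelled Cre differed from ctrl in 3 of the 9 genes other than Fbn2, all lower: Efemp1, Eln and Mfap5. Of all genes tested, 0.522% were called lower in this comparison and 0.087% higher. Fibrillin-2 (Fbn2), the fibrillin known from development, was 2.96, 3.08 and 3.43 FPKM in the ctrl libraries and 0.798, 1.16 and 0.788 FPKM in Cre. These ranges do not overlap, and the change was -1.12 ± 0.08 (SE), from the group that let the gene pass the filter. Efemp1, which encodes fibulin-3, was 187, 225 and 184 FPKM in ctrl against 90.7, 106 and 88.3 FPKM in Cre. Every Cre library was thus below every ctrl library (-1.05 ± 0.09 SE, limma adjusted p = 0.000261). Eln, which encodes tropoelastin, was 1.66, 1.48 and 2.60 FPKM in ctrl against 0.716, 0.739 and 0.553 FPKM in Cre (-0.79 ± 0.15 SE, limma adjusted p = 0.0213). Mfap5, a microfibril-associated glycoprotein, was 9.92, 10.6 and 10.5 FPKM in ctrl against 5.90, 7.06 and 5.0 FPKM in Cre (-0.71 ± 0.17 SE, limma adjusted p = 0.0474). The Mfap5 call was lost without any 1 of the 6 libraries of these groups, and the Eln call without Cre replicate 2 or 3, each of which left 2 calls of 4, Fbn2 included. With a pseudocount of 5 only 1 of these 4 calls was made, and 2 were made when only these groups were fitted. The other 6 members, Fbn1, Fbln1, Fbln2, Fbln5, Efemp2 and Lox, changed by -0.26 to 0.07. Fbn1, for fibrillin-1 of the microfibril, was 362 ± 6 FPKM in ctrl against 304 ± 12 FPKM in Cre (SD, n = 3), a change of -0.25 that passed the p (limma adjusted p = 0.00961) but not the 1.5-fold threshold.

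With full-length NFIA in Cre cells, Eln was higher and 2 fibulins were lower at day 0. Eln reached 2.90, 3.30 and 2.54 FPKM in Cre + NFIA, all above the 0.553 to 0.739 FPKM of Cre and 4.36 times its mean (1.23 ± 0.15 SE, limma adjusted p = 0.000153). Fbln5, which helps tether tropoelastin to microfibrils and cells, went from 15.6, 15.6 and 15.7 FPKM to 7.77, 7.65 and 7.38 FPKM (-0.95 ± 0.06 SE, limma adjusted p = 1.56e-06). Fbln1, another fibulin of the elastic fibre core, was 157 ± 10 FPKM in Cre and 99.3 ± 2.7 FPKM in Cre + NFIA (SD, n = 3; -0.66 ± 0.06 SE, limma adjusted p = 1.96e-05). Among all genes, 3.77% were called higher and 3.14% lower. The other 7 members changed by -0.54 to 0.25 and were not called, although Fbn2 (0.915 ± 0.212 to 0.310 ± 0.050 FPKM; SD, n = 3) and Lox (322 ± 4 to 228 ± 16 FPKM) had adjusted p of 0.000829 and 0.000934 in limma. Without Cre replicate 3, and with limma voom on recovered reads, 5 members were called. With limma voom, 1212 genes were called in all, against 873 in the main fit.

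With the Δpro#3 mutant, 4 members were lower than in Cre at day 0, namely Mfap5, Fbln5, Lox and Fbn2, while 1.91% of all genes were lower and 1.55% higher. Fbln5 was 7.90, 7.70 and 8.02 FPKM, beside the 7.38 to 7.77 FPKM of full-length NFIA (change from Cre -0.91 ± 0.06 SE, limma adjusted p = 9.03e-06). Mfap5 was 2.08, 2.98 and 1.72 FPKM, below each Cre library (-1.11 ± 0.17 SE, limma adjusted p = 0.00135). Lox, the lysyl oxidase that cross-links elastin and collagen, was 201, 207 and 203 FPKM against 318, 326 and 323 FPKM in Cre (-0.66 ± 0.08 SE, limma adjusted p = 0.000367). Fbn2 was the lowest of its 8 groups at 0.219 ± 0.021 FPKM (SD, n = 3; -0.65 ± 0.08 SE, limma adjusted p = 0.000601), and this call was lost without Cre replicate 2. Eln was 0.791, 0.423 and 0.366 FPKM, 1 of them above and the others below the Cre libraries, and the change of -0.14 had a 95% interval of -0.47 to 0.19.

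Compared directly at day 0, Cre + NFIA Δpro#3 differed from Cre + NFIA in 1 member, Eln, which was lower (-1.36 ± 0.15 SE, limma adjusted p = 0.000162). Over all genes, 2.08% were called lower and 1.04% higher. With a pseudocount of 5 the Eln change was -0.52 and no member was called. For Fbln5, the difference between the proteins was 0.04 with a 95% interval of -0.09 to 0.18. That of Fbn2 was -0.10 (-0.29 to 0.08), and that of Efemp1 was 0.03 (-0.18 to 0.23). Mfap5 differed by -0.59 (limma adjusted p = 0.0501), with overlapping libraries, and was called together with Eln in the fit over all 24 libraries, in the fit with the replicate block, with a pseudocount of 0.1 and with limma voom. Cre + NFIA and ctrl differed at day 0 in 5 of the 9 members other than Fbn2, all lower with the introduced gene: Mfap5 (-1.23), Fbln5 (-1.21), Efemp1 (-1.17), Fbln1 (-0.86) and Lox (-0.76), each with its SE between 0.06 and 0.17 and limma adjusted p of at most 0.000293. Fbn2, which passed the filter through ctrl, was at -1.67. Background calls there were 3.87% lower and 4.1% higher.

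At day 7, 7 members were called between Cre and ctrl. The libraries labelled Cre held more mRNA of 6 members than ctrl, namely Lox, Efemp2, Fbln2, Fbn1, Fbln5 and Efemp1, and less of Eln, with 13.6% of all genes called higher and 9.92% lower. Higher genes were 57.8% of these calls, and 43.3% with median-of-ratios size factors, which called 6 members higher and 1 lower as well. Lox was 112, 80.6 and 95.6 FPKM in ctrl against 220, 202 and 242 FPKM in Cre, with no overlap (1.203 ± 0.115 SE, limma adjusted p = 4.77e-06). Efemp2, which encodes fibulin-4, the fibulin that brings lysyl oxidase to tropoelastin, was 208, 204 and 192 FPKM in ctrl against 429, 432 and 467 FPKM in Cre (1.13 ± 0.07 SE, limma adjusted p = 4.49e-07). Fbn1 was 128, 88.1 and 105 FPKM in ctrl against 211, 187 and 230 FPKM in Cre (0.97 ± 0.11 SE, limma adjusted p = 2.04e-05). The Cre libraries all lay above the ctrl libraries for these 3 genes. Fbln2 was 146 ± 14 and 316 ± 30 FPKM (SD, n = 3; 1.10 ± 0.08 SE), Fbln5 8.83 ± 1.504 and 17.7 ± 1.6 FPKM (0.93 ± 0.10 SE), and Efemp1 154 ± 13 and 260 ± 15 FPKM (0.76 ± 0.07 SE), with limma adjusted p of at most 1.36e-05. Fbln1 (60.8 ± 4.6 to 91.4 ± 6.3 FPKM; SD, n = 3) missed the 1.5-fold threshold at 0.58, and Mfap5 (10.2 ± 1.8 to 14.7 ± 0.4 FPKM) did so at 0.50 (limma adjusted p = 0.0131). Eln went the other way, from 4.82, 5.10 and 4.75 FPKM in ctrl to 2.90, 2.35 and 2.23 FPKM in Cre (-0.76 ± 0.11 SE, limma adjusted p = 0.000104). Fbn2 was at 0.588 ± 0.012 and 0.472 ± 0.136 FPKM, with overlapping libraries.

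With full-length NFIA in Cre cells, 8 of the 10 members were lower at day 7, while 16.2% of all genes were called lower and 12.6% higher. Lox fell to 57.8, 62.7 and 65.8 FPKM (-1.82 ± 0.12 SE, limma adjusted p = 1.13e-07). Efemp2 fell to 138, 122 and 147 FPKM (-1.70 ± 0.07 SE, limma adjusted p = 8.04e-09), and Fbn1 to 66.0, 65.6 and 72.1 FPKM (-1.61 ± 0.11 SE, limma adjusted p = 2.47e-07). For these 3, each Cre + NFIA library was below each Cre library. Fbln5, Mfap5, Fbln1, Fbln2 and Efemp1 changed by -1.51, -1.47, -1.37, -1.37 and -1.25, with limma adjusted p of at most 4.49e-06. Eln, in contrast, was 4.45, 3.54 and 4.16 FPKM, above each Cre library, and its mean was 1.62 times that of Cre. The change of 0.53 ± 0.11 (SE, limma adjusted p = 0.0012) did not reach 1.5-fold on the log2(FPKM + 1) scale. It did so, among other settings, with median-of-ratios size factors (0.61) or quantile normalization (0.64). Compared with ctrl, Cre + NFIA at day 7 was lower in 4 members, Mfap5 (-0.97), Fbln1 (-0.79), Fbn1 (-0.63) and Lox (-0.61), against 2.04% of all genes called lower and 2.03% higher; without ctrl replicate 1, the calls for Fbn1 and Lox were lost and 2 remained.

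The Δpro#3 mutant gave no member call against Cre at day 7 (limma), where 0.941% of all genes were called higher and 4.03% lower. At an unadjusted limma p under 0.05, 2 members differed, Efemp1 and Fbln1. The share of all genes at that looser rule is not given here, and the shares above do not apply to it. No member was called with limma voom either. Lox was 204, 217 and 250 FPKM, around the Cre values, and its change of 0.01 had a 95% interval of -0.24 to 0.26. The intervals for Fbn1 (-0.30 to 0.20), Efemp2 (-0.05 to 0.26), Fbln2 (-0.06 to 0.31), Mfap5 (-0.31 to 0.35) and Eln (-0.31 to 0.17) also contained 0, and a change as large as that of full-length NFIA lay outside each of them. Efemp1, the member with the largest change, was 314, 332 and 307 FPKM against 251, 253 and 277 FPKM in Cre (0.29 ± 0.07 SE, limma adjusted p = 0.0145), apart in all libraries and below 1.5-fold. Between mutant and full-length NFIA, 8 members were higher with the mutant and Eln was lower (-0.60 ± 0.11 SE, limma adjusted p = 0.00038), beside 19.5% of all genes called higher and 16.1% lower. The higher members ranged from 1.37 for Fbln5 to 1.83 for Lox, and Fbn2 was the 1 member without a call (0.27). The Eln call was lost without Cre + NFIA replicate 1 and without mutant replicate 1 or 3.

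**Figure D2:**
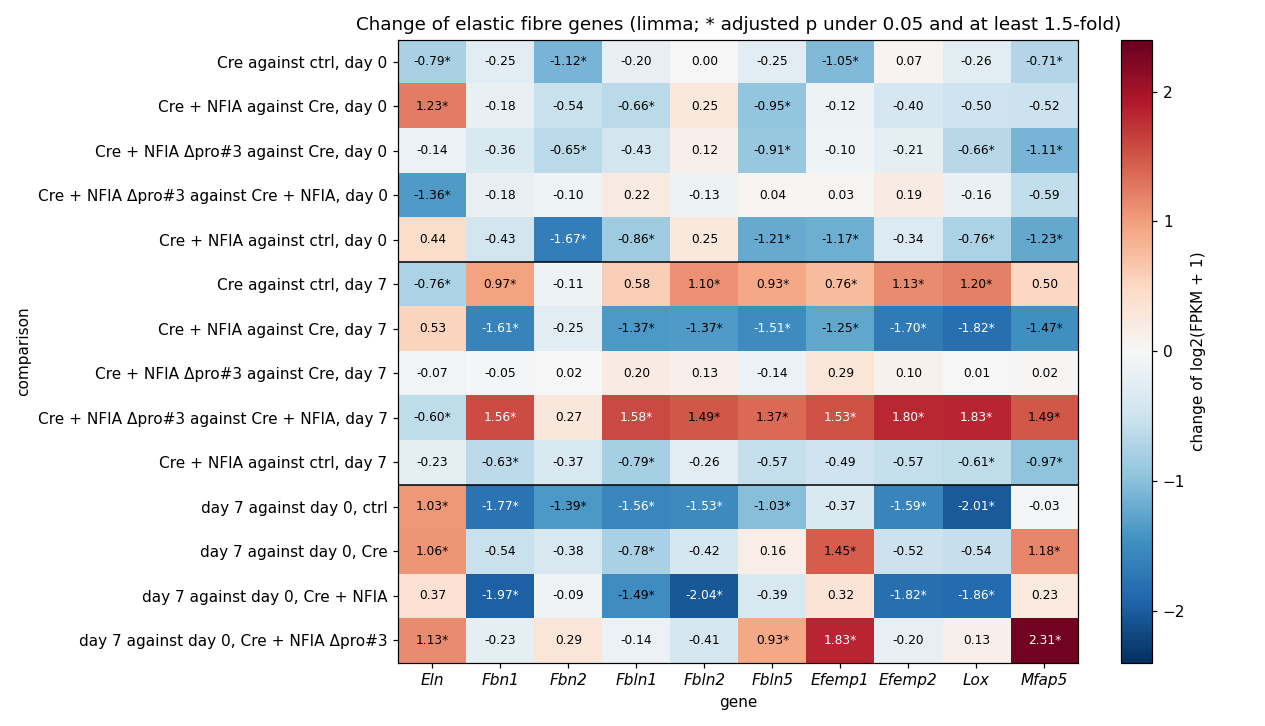
Change of log2(FPKM + 1) for each gene (columns) in the within-day comparisons and in day 7 against day 0 (rows); red is higher in the first-named group, blue lower, and a star marks a limma call. The row of Cre + NFIA Δpro#3 against Cre at day 7 carries no star, while that of Cre + NFIA against Cre carries 8.

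Over differentiation of ctrl cells 6 of the 9 members other than Fbn2 fell and Eln rose, where 19.4% of all genes were called lower and 18.9% higher. Lox fell from 389 ± 50 to 96.2 ± 15.9 FPKM (SD, n = 3; -2.01 ± 0.10 SE, limma adjusted p = 3.32e-13), and Fbn1 (-1.77), Efemp2 (-1.59), Fbln1 (-1.56), Fbln2 (-1.53) and Fbln5 (-1.03) also fell. Fbn2 was at -1.39, measured from the group through which it passed the filter. Eln rose from 1.91 ± 0.60 to 4.89 ± 0.18 FPKM (1.03 ± 0.14 SE, limma adjusted p = 7.47e-07). Mfap5 changed by -0.03, with a 95% interval of -0.37 to 0.31, and Efemp1 by -0.37, below the threshold.

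Cre cells showed another course. Between day 0 and day 7, Efemp1 rose from 95.1 ± 9.7 to 260 ± 15 FPKM (SD, n = 3; 1.45 ± 0.08 SE, limma adjusted p = 1.33e-11), Mfap5 from 5.99 ± 1.03 to 14.7 ± 0.4 FPKM (1.18 ± 0.16 SE, limma adjusted p = 4.35e-06) and Eln from 0.669 ± 0.101 to 2.497 ± 0.356 FPKM (1.06 ± 0.14 SE, limma adjusted p = 1.29e-06). Fbln1 was the 1 member called lower (-0.78), and Lox and Fbn1 each changed by -0.54, short of 1.5-fold. Of all genes, 11.8% were called higher and 6.08% lower, and the higher share of calls went from 66% to 51.1% with quantile normalization. Among the members, size factors called 3 higher and 3 lower, and quantile normalization 3 and 2. In Cre + NFIA, 5 members fell and none rose, namely Fbln2 (-2.04), Fbn1 (-1.97), Lox (-1.86), Efemp2 (-1.82) and Fbln1 (-1.49), with 19.2% of genes called lower and 18.7% higher. In Cre + NFIA Δpro#3, 4 members rose and none fell, with 8.01% called higher and 4.07% lower (a higher share of 66.3%, and of 54.4% with quantile normalization): Mfap5 (2.26 ± 0.65 to 15.1 ± 3.3 FPKM; 2.31 ± 0.16 SE), Efemp1 (88.8 ± 6.6 to 318 ± 13 FPKM; 1.83 ± 0.08 SE), Eln (0.527 ± 0.231 to 2.33 ± 0.44 FPKM; 1.13 ± 0.14 SE) and Fbln5 (7.87 ± 0.16 to 15.9 ± 1.2 FPKM; 0.93 ± 0.09 SE), with limma adjusted p of at most 9.33e-07. Lox stood at 204 ± 3 FPKM before and 224 ± 24 FPKM after, a change of 0.13 with a 95% interval of -0.09 to 0.34.

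Whether the day changed the effect of each introduced gene was tested by interaction terms over all 24 libraries. For Cre against ctrl, 8 of the 9 members other than Fbn2 had a higher value at day 7 relative to day 0. Beside them, 15% of all genes were called higher and 10.7% lower (58.2% of calls higher, and 45.1% with size factors). The exception was Eln (0.03, 95% interval -0.37 to 0.43), which was lower in Cre on both days. The Eln term depends on the pseudocount, as Eln was at 0.669 FPKM in Cre at day 0. On raw means, Eln in Cre was 0.35 times its level in ctrl at day 0 and 0.511 times at day 7. The term of Fbn2 was 1.01, with ctrl at day 0 as one of its 4 groups. The term was largest for Efemp1 (1.81 ± 0.12 SE, limma adjusted p = 1.54e-09). For Cre + NFIA against Cre, 8 members had a lower value, against 16.1% of all genes lower and 11.1% higher (40.7% of calls higher, and 52.5% with size factors), from -0.70 for Eln to -1.61 for Fbln2. For Cre + NFIA Δpro#3 against Cre, 5 members had a higher value (2.21% of all genes higher, 5.36% lower): Mfap5 (1.13), Fbln5 (0.77), Lox (0.67), Fbn2 (0.67) and Fbln1 (0.63). The comparisons with Cre share the Cre libraries.

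Fat cell markers also differed between the groups, and in bulk samples fewer cells of a type and less RNA per cell cannot be told apart. The summed FPKM of 12 adipocyte markers, led by Fabp4, Lpl and Adipoq, was 75.7 to 123 in the libraries of day 0. At day 7 it was 22217 to 25862 in ctrl, 4478 to 9576 in Cre, 20955 to 21153 in Cre + NFIA and 874 to 2171 in Cre + NFIA Δpro#3. The 10 members summed to 790 ± 72, 1576 ± 111, 546 ± 22 and 1701 ± 54 FPKM in these groups (SD, n = 3). The 2 groups with the most adipocyte marker mRNA had the least. The abundant members make up most of this sum. Eln, which adds little to it, was instead highest in those groups, at 4.89 ± 0.18 FPKM in ctrl and 4.05 ± 0.46 FPKM in Cre + NFIA. At day 0 the sum of the 10 members was 2197 ± 57, 1960 ± 43, 1680 ± 55 and 1661 ± 27 FPKM in the same order. The summed level of 12 precursor and fibroblast markers, led by Ly6a, Col1a1 and Col3a1, was highest and lowest in the same groups as the member sum, at 1412 ± 65, 2459 ± 173, 1091 ± 71 and 2847 ± 232 FPKM at day 7. Of the 9 tested, 5 were higher and 1 lower in Cre against ctrl at day 7, beside 13.6% and 9.92% of all genes. In Cre + NFIA against Cre at day 7, 7 were lower and none higher, beside 16.2% and 12.6%. At day 0, 4 were lower and none higher in Cre against ctrl, beside 0.522% and 0.087% of all genes. In Cre + NFIA against Cre at day 0, 3 were higher and 2 lower, beside 3.77% and 3.14%. The member sum divided by the precursor sum ranged from 0.495 to 0.641 over the 8 group means. Adipocyte markers took 2.81% of counted reads in ctrl, 0.932% in Cre, 2.53% in Cre + NFIA and 0.256% in Cre + NFIA Δpro#3 at day 7. The part of cell composition in the results was not tested. Markers of endothelial, immune and mesothelial cells were lower. Summed within each library, 8 endothelial markers reached 1.67 to 10.2 FPKM, 8 immune markers 4.53 to 13.6 FPKM and 5 mesothelial markers 1.22 to 8.78 FPKM. In these lists, 1 to 5 genes were at 0 in every library of a group. Smooth muscle and pericyte markers summed to 121 to 255 FPKM at day 0 and 196 to 479 FPKM at day 7. Of the 8 tested, 1 was higher and 3 lower in Cre against ctrl at day 7. In Cre + NFIA against Cre 3 were higher and 4 lower, and in the mutant against Cre + NFIA 4 were higher and 3 lower. In the last of these, 19.5% of all genes were called higher and 16.1% lower.

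**Figure D3:**
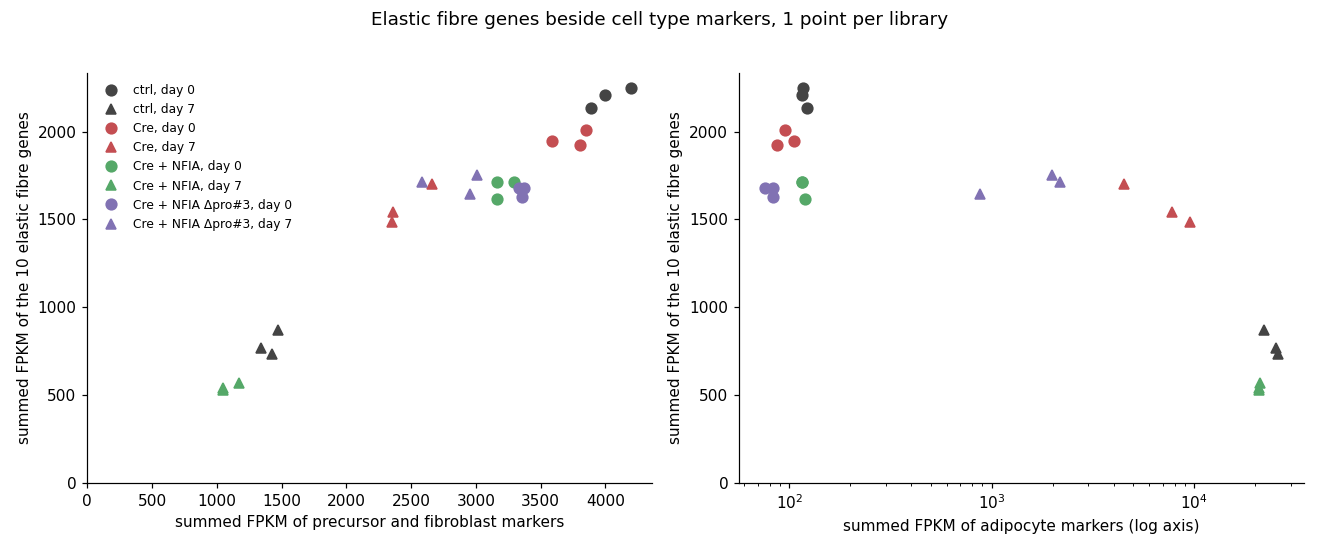
Summed FPKM of the 10 genes against the summed FPKM of precursor and fibroblast markers (left, linear axes) and of adipocyte markers (right, log horizontal axis); each point is a library, circles for day 0 and triangles for day 7, coloured by cell type. The member sum is lowest in ctrl and Cre + NFIA at day 7, where the adipocyte marker sum is 20955 or more.

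Over the 24 libraries, the genes divided into several courses, given here as a description since libraries of a group share their treatment. Fbn1, Lox, Fbln1, Efemp2 and Fbln2 ran together, with Pearson r of log2(FPKM + 1) between 0.88 and 0.98. Efemp1 and Mfap5 had r = 0.91 with each other and between -0.17 and 0.17 with those 5. Fbln5 was intermediate, at 0.46 to 0.76 with the 5 genes and 0.66 and 0.70 with Efemp1 and Mfap5. Eln was negative to the 5, from -0.65 to -0.73. Among all other genes tested, those most like each member were Cdc42ep3 (r = 0.933) and Nid2 (0.922) for Eln, Bicc1 (0.992) and Arhgap28 (0.99) for Fbn1, Atp1b2 (0.915) and Adgrl2 (0.898) for Fbn2, and Nynrin (0.95) and Nfatc4 (0.948) for Mfap5. They were Mmp23 (0.985) and Arhgef25 (0.983) for Fbln1, Slc29a1 (0.995) and Atp8b2 (0.991) for Fbln2, and Fat4 (0.979) and Peg10 (0.963) for Fbln5. Efemp1 was most like Acta2 (0.94) and Tgfb1 (0.938), Efemp2 like Arhgef17 and Trerf1 (0.991 each), and Lox like Il1rap (0.989) and Zfp521 (0.986).

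**Figure D4:**
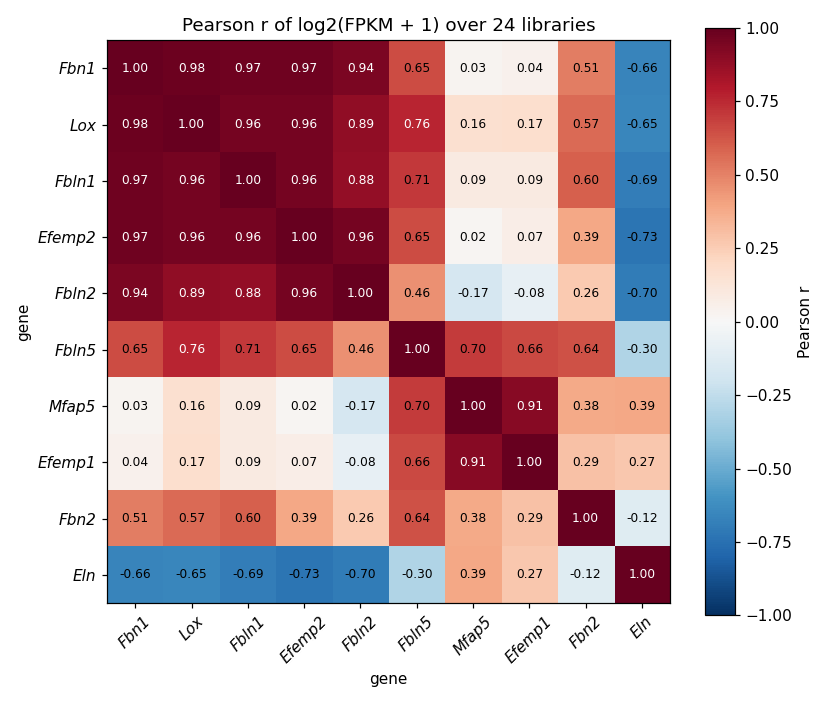
Pearson r between genes over 24 libraries, on log2(FPKM + 1), with genes in rows and columns and red for positive and blue for negative values. The 5 genes at the upper left have r of 0.88 or more with each other, Mfap5 and Efemp1 pair at 0.91, and Eln is negative to the 5.

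Other genes of the pathway were read in 4 lists. Of 16 other microfibril and elastic fibre genes tested, 8 were higher and none lower in Cre against ctrl at day 7, and 10 were lower and none higher in Cre + NFIA against Cre. Over all genes tested, 13.6% were higher and 9.92% lower in the first of these comparisons, and 12.6% higher and 16.2% lower in the second. Emilin2, an elastin-associated glycoprotein, was 80.3 ± 11.1 FPKM in Cre and 24.02 ± 1.23 FPKM in Cre + NFIA (SD, n = 3; -1.69 ± 0.08 SE, limma adjusted p = 1.81e-08), and Adamtsl5, a microfibril-binding protein, changed by -1.65. Of 12 cross-linking and elastin handling genes, 9 were higher in Cre and 9 lower with NFIA at day 7. Loxl2, a lysyl oxidase family member, was 19.6 ± 1.1 FPKM in ctrl against 54.99 ± 7.72 FPKM in Cre (1.43 ± 0.10 SE, limma adjusted p = 8.19e-07). Of 7 enzymes able to degrade elastin, 5 were higher and then 6 lower in the same comparisons. They included the protease Ctsk (cathepsin K; 10.9 ± 1.1 FPKM in ctrl against 31.0 ± 3.8 FPKM in Cre) and Mmp14, a membrane-bound metalloproteinase (100.6 ± 9.2 in ctrl, 247 ± 17 in Cre and 74.7 ± 2.7 FPKM in Cre + NFIA). Of 8 TGF-beta ligands and elastic fibre integrins, 6 were higher in Cre and all 8 lower with NFIA. The Δpro#3 mutant against Cre at day 7 gave 1 call among the cross-linking genes, 1 among the degrading enzymes and none in the other lists, beside 0.941% of all genes higher and 4.03% lower. Loxl4 was higher (8.79 ± 1.13 to 15.2 ± 0.7 FPKM; SD, n = 3; 0.73, limma adjusted p = 0.00381) and Mmp9 lower (1.27 ± 0.07 to 0.465 ± 0.049 FPKM; -0.63, limma adjusted p = 0.00951).

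At day 0, Cre against ctrl gave 1 call over the 4 lists, Tgfb1 (0.522% of all genes were lower), which was 4.19 ± 0.54 FPKM in ctrl against 2.29 ± 0.44 FPKM in Cre (SD, n = 3; -0.66, limma adjusted p = 0.0313). Loxl4, a lysyl oxidase relative, was higher with NFIA (24.02 ± 1.23 FPKM) and with the mutant (21.3 ± 1.0 FPKM) than in Cre (11.05 ± 1.06 FPKM), by 1.06 and 0.89. Loxl1 was higher with the mutant, at 135 ± 2 FPKM against 76.6 ± 11.8 FPKM (0.82, limma adjusted p = 0.0029), and with full-length NFIA, at 122 FPKM on average (0.67, limma adjusted p = 0.00492). Adamtsl3 and Tnxb were called higher with NFIA, by 0.95 and 0.73, and were at 0.21 and 0.56 with the mutant, not called. Mmp9 was lower with both proteins (-1.22 and -0.96) and was 1.58 ± 0.15 FPKM in Cre. Mfap2 was also lower with both (-0.61 with NFIA and -0.64 with the mutant). Cela1 was called lower with NFIA (-0.64) and was at -0.30 with the mutant, and Ctsk and Tgfb3 were called lower with the mutant (-0.84 and -0.74) and were at -0.44 and -0.08 with NFIA.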

How the data were processed

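RNA-seq of 24 libraries (8 groups of 3) was analysed. Per the labels and the study's methods, the authors made poly(A) libraries with a stranded kit, aligned reads to mm9 with STAR 2.5.3a, kept uniquely mapped reads and turned gene counts into FPKM. The deposited FPKM and gene lengths were used. Whole reads were recovered from the deposited FPKM in 100% of values (tolerance 0.1 read), so depth is known, at 7.73 to 14.62 M reads (M, 1000000). Replicate libraries of a group differed by more than sampling noise (chi-square per degree of freedom 2.17 to 15.1), so each was counted.

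Genes with at least 1 FPKM in 3 or more libraries (12640 of 24825) were tested with limma 3.58.1 (R 4.3.3) with trend on log2(FPKM + 1). A comparison at 1 day was fitted on its 12 libraries, while day 7 against day 0 and the interactions took all 24. P-values were adjusted over all tested genes by Benjamini-Hochberg, and a call needed an adjusted p under 0.05 and 1.5-fold. The scripts were tested on simulated data. The 10 members, the gene lists, the tests and the alternatives were chosen with earlier results of these data known. Named other genes were, over the 4 pathway lists together, up to 3 called rises and 3 called falls of the largest size on each day for Cre against ctrl and for each NFIA form against Cre, the 3 most abundant genes of each marker list, and the 2 genes most like each member by Pearson r. The second protein's values for Loxl1, Mfap2, Cela1, Ctsk, Tgfb3, Adamtsl3 and Tnxb at day 0 were added after they were seen. Alternatives were other pseudocounts (0.1 and 5), filters, normalizations, sets of libraries, fold thresholds (none and 3-fold), limma without trend, limma voom on the recovered reads, a replicate block and leaving out each library. Promoter windows came from RefSeq, build GRCm38.p6, and gene positions from the mm9 annotation. Coordinates of the other 2 members are not reported here.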

Additional observations from a re-analysis of the deposited data

Results flagged for a closer look

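The effect of an introduced gene differed between day 0 and day 7 for 22 of the 30 tests of a member by an interaction term (limma over 12640 genes, adjusted p under 0.05 and 1.5-fold, all 24 libraries). Over all genes, 15% were called higher and 10.7% lower for Cre against ctrl, 11.1% and 16.1% for full-length NFIA against Cre, and 2.21% and 5.36% for the mutant against Cre. The term of Fbn2 for Cre against ctrl is among the 22 and rests on ctrl at day 0, the group through which this gene passed the filter. Values are the change at day 7 minus the change at day 0 in log2(FPKM + 1).

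For Cre against ctrl the term was 1.81 for Efemp1, 1.47 for Lox, 1.22 for Fbn1, 1.21 for Mfap5, 1.19 for Fbln5, 1.10 for Fbln2, 1.06 for Efemp2, 1.01 for Fbn2 and 0.78 for Fbln1, with SE of 0.10 to 0.23. Efemp1 was lower in Cre than in ctrl at day 0 and higher at day 7, both called. With full-length NFIA against Cre, the term was -1.61 for Fbln2, -1.43 for Fbn1, -1.32 for Lox, -1.30 for Efemp2, -1.13 for Efemp1, -0.95 for Mfap5, -0.72 for Fbln1 and -0.70 for Eln, with SE of 0.10 to 0.23. Eln was higher with NFIA on both days and the difference from Cre was smaller at day 7. With the Δpro#3 mutant against Cre it was 1.13 for Mfap5, 0.77 for Fbln5, 0.67 for Lox, 0.67 for Fbn2 and 0.63 for Fbln1, with SE of 0.10 to 0.23. The adipocyte markers moved with day and cell type in the same libraries (10 of 10 tested markers had a lower term for Cre against ctrl and 10 of 10 for the mutant against Cre, and 8 had a higher one for NFIA against Cre), and their part in these results was not tested.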

How the results depend on the processing

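No called member changed direction under the alternatives run; what changed was how many passed. Counts here include Fbn2. Shares of all genes at 3-fold and with no fold threshold are not given here, so member counts under those settings have no background beside them. At day 0 a 3-fold threshold left 1 call for Cre + NFIA against ctrl and 0 for each of the other 4 comparisons. That call was Fbn2, which passed the filter through ctrl at day 0. No other member was called at 3-fold on that day on the log2(FPKM + 1) scale, which understates changes of low genes. On raw means, Eln in Cre + NFIA was 4.36 times its level in Cre, and in the mutant 0.181 times its level in Cre + NFIA. At day 7 the 3-fold threshold left 0 for Cre against ctrl, 3 for Cre + NFIA against Cre, 2 for the mutant against Cre + NFIA and 0 for Cre + NFIA against ctrl. Between days it left 3 in ctrl, 0 in Cre and 2 in the mutant, and for the interactions 1 (Cre against ctrl), 1 (NFIA) and 0 (mutant). With no fold threshold, 9 members passed for Cre + NFIA against Cre, 3 for the mutant against Cre + NFIA and 10 for Cre + NFIA against ctrl at day 0, 1 for the mutant against Cre and 9 for Cre + NFIA against ctrl at day 7, and 9, 8 and 8 between days in Cre, Cre + NFIA and the mutant.

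For Cre against ctrl at day 0, 1 member was called with a pseudocount of 5, 2 at a mean of at least 5 FPKM (which leaves fewer genes and members tested), and 2 when only the groups compared were fitted. For the mutant against Cre + NFIA at day 0 it was 2 with a pseudocount of 0.1, 0 with 5, 2 with all 24 libraries and 2 with limma voom. For Cre + NFIA against Cre at day 0, limma voom called 5 members. It called 1212 genes in all there, against 873 in the main fit. The interaction of the mutant had 3 members with a pseudocount of 5. limma voom called 149 genes in all against 77 for Cre against ctrl at day 0, 701 against 438 for the mutant against Cre and 595 against 394 for the mutant against Cre + NFIA on that day, and 814 against 515 for Cre + NFIA against ctrl at day 7.

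Median-of-ratios size factors moved the median change of all genes by -0.112 in Cre against ctrl and by -0.104 in the mutant against Cre + NFIA at day 7, and by -0.114 and 0.11 in the interactions of Cre and of NFIA. Quantile normalization moved it by -0.101 for day 7 against day 0 in Cre. Values near 0, none of them called, changed sign with scaling or, for Eln, also with the pseudocount, and the cause was not tested. Fbln2 in Cre against ctrl at day 0 was -0.0027 and -0.12 with size factors and quantiles. Efemp1 in the mutant against Cre + NFIA at day 0 was -0.0198 with quantiles. In the mutant against Cre at day 7, Lox was -0.00301 with size factors and Fbn1 0.0365 with quantiles. Mfap5 over differentiation of ctrl was 0.0474 and 0.0122 with the same settings. Eln in the interaction of Cre was -0.12 with a pseudocount of 5, -0.076 with size factors and -0.22 with quantiles.

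Leaving out 1 library gave 2 to 3 calls for Cre against ctrl, 3 to 5 for Cre + NFIA against Cre and 1 to 2 for the mutant against Cre + NFIA at day 0, and 2 to 6 for Cre + NFIA against ctrl at day 7. The extremes came from Cre replicates 2 and 3, Cre replicate 3, Cre + NFIA replicate 1 or mutant replicate 2, and, for the lowest and highest count at day 7, ctrl replicate 1 and replicate 3 of ctrl or of Cre + NFIA. Uncalled values that changed sign ranged as follows. In Cre against ctrl at day 0 they ran for Fbln2 from -0.093 to 0.048 and Efemp2 from -0.024 to 0.12. In the mutant against Cre + NFIA at day 0 they ran for Efemp1 from -0.0345 to 0.0648. In the mutant against Cre at day 7 they ran for Eln from -0.179 to 0.00807, Fbn2 from -0.0483 to 0.0899, Lox from -0.0699 to 0.0788, Fbn1 from -0.13 to 0.021 and Mfap5 from -0.14 to 0.13. In day 7 against day 0 in ctrl they ran for Mfap5 from -0.13 to 0.094. In the interaction of Cre they ran for Eln from -0.13 to 0.14. In the interaction of the mutant they ran for Fbln2 from -0.048 to 0.084 and Eln from -0.042 to 0.18. The call for Fbn2 in the interaction of the mutant was lost without Cre day 0 replicate 2 (0.58). Of 1200 such values for members, 1138 kept direction and side of the threshold.

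Replicate numbers are shared between groups, but same-numbered libraries did not deviate together (mean correlation -0.159 to 0.056 over the comparisons), so they were not taken as pairs. With the replicate block, 2 members were called for the mutant against Cre + NFIA at day 0, and 169 of 170 member results stood on the same side. At 7.73 to 10.16 M reads in Cre at day 0, Eln and Fbn2 rest on 17 to 94 reads per library, which limits how finely their levels are known.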
